A study of Mus musculus with 12 samples.

Results

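The genes described are 35 microglia genes, taken by their symbols from a table of 53379 genes measured in mouse brain. They fall into 17 homeostatic and lineage genes (Tmem119 to Mertk) and 18 disease-associated genes (Trem2 to Fcer1g), and each of the 35 symbols matched 1 row. Brain tissue, described for the series as cortex, came from wild-type C57BL/6J mice on a continuous purified control diet or on a fish oil supplemented high-fat diet given in cycles. On each diet, mice received either a sham procedure or rlmTBI (closed head injuries, each less than mild, given repeatedly), and tissue was collected 6 months later. The 2 diets with the 2 procedures make 4 groups, called purified sham, purified injured, then fish oil sham and last fish oil injured, of 3 libraries each, numbered 2, 3 and 4 in the labels. Fish oil, a high fat content and feeding in cycles came together in 1 diet, and the part of each cannot be told apart. The labels name the tissue as brain and do not say that each library came from a separate animal, so the p-values rest on a spread among libraries that may be technical.

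Microglia are the resident macrophages of the brain parenchyma. At rest they survey the tissue and express a set of sensing receptors, among them the purinergic receptor P2ry12 and the fractalkine receptor Cx3cr1, under the lineage factors Spi1 and Irf8 and the identity factor Sall1. Around amyloid plaques, dying neurons and damaged myelin they can enter a disease-associated state, in which the homeostatic receptors decline and a phagocytic and lipid-handling programme with Apoe, Lpl, Cst7, Itgax, Clec7a and Spp1 is induced through the lipid receptor Trem2 and its adaptor Tyrobp. Several of these genes are also used by other brain cells: Apoe by astrocytes, Ctsb and Ctsd by most cells, Mertk and Axl by astrocytes and other phagocytes, and Spp1, Lpl and Gpnmb outside microglia as well.

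The tissue carried the mark of resident microglia in every library. Total counts ran from 46362158 to 70754854 per library, and all 35 genes had counts in all 12 libraries and passed the filter on low counts, which left 19252 genes for testing. The summed level of the 17 homeostatic genes lay between 332 and 496 CPM (counts scaled to the size of the library) across libraries, and that of 6 neuron markers between 5933 and 9961. The 12 blood leukocyte markers summed to 0.597 to 3.74 CPM, and 9 of them, among them Ly6c2, S100a8 and Cd3e, had no count in some libraries. The 9 markers of border macrophages, which share many genes with microglia, summed to 10.6 to 29.9 CPM, with Ms4a7 and Siglec1 without counts in some libraries. Some libraries carried transcripts of neighbouring tissue: 3 olfactory bulb output neuron markers (Cdhr1, Eomes and Doc2g) summed to 644 CPM in purified injured replicate 3 against 2.35 to 26.8 in the others. The 7 choroid plexus markers summed to 222, 2649 and 2501 CPM in fish oil injured replicates 2, 3 and 4 and to 477 in purified sham replicate 3, against 21.9 to 63.6 in the remaining libraries. The 5 striatal neuron markers reached 935 CPM in the fish oil sham group and 41.0 CPM at the lowest in the purified injured group. In bulk tissue, fewer microglia and less RNA per microglial cell cannot be told apart.

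Levels of different genes are compared as CPM per kb of exon, and each range below is over the 12 libraries. Apoe, the main lipid carrier of the brain, was at the top with a mean of 190.0 CPM per kb, followed by the lysosomal proteases Ctsb at 98.1 and Ctsd at 65.9. The ranges of Ctsb (84.1 to 125) and Ctsd (52.9 to 86.2) touched, while that of Apoe (144 to 262) lay clear of both. Tyrobp, the signalling adaptor of Trem2, followed at 18.5, then P2ry12 at 17.2, the tetraspanin Cd9 at 16.4, the colony-stimulating factor receptor Csf1r at 15.7 and Cx3cr1 at 12.98. The ranges of these neighbours overlapped, and their order within single libraries was not compared. Tmem119, a membrane protein restricted to microglia in the brain, was at 6.03, and Trem2 at 1.44 CPM per kb.

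The 4 lowest genes in that order, Cst7, Clec7a, Lgals3 and Itgax, all belong to the disease-associated list, while other genes of that list, such as Spp1 at 11.5 and Lpl at 2.25 CPM per kb, stood higher. Cst7, which encodes the cysteine protease inhibitor cystatin F, had a mean of 0.19 CPM per kb and between 4 and 18 counts in a library. Clec7a, the beta-glucan receptor dectin-1, also had a mean of 0.19, from 8 to 48 counts, and the galectin Lgals3 had 0.16, from 4 to 38 counts. Itgax, the integrin subunit CD11c, was the lowest at 0.07, with 2 to 44 counts. A read pair may count as 2 in these data, so fewer pairs may lie behind such counts. At these counts only large changes would be visible: the 95% interval of the Itgax fold change with injury on the purified diet ran from -0.34 to 2.63 on the log2 scale.

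**Figure D1:**
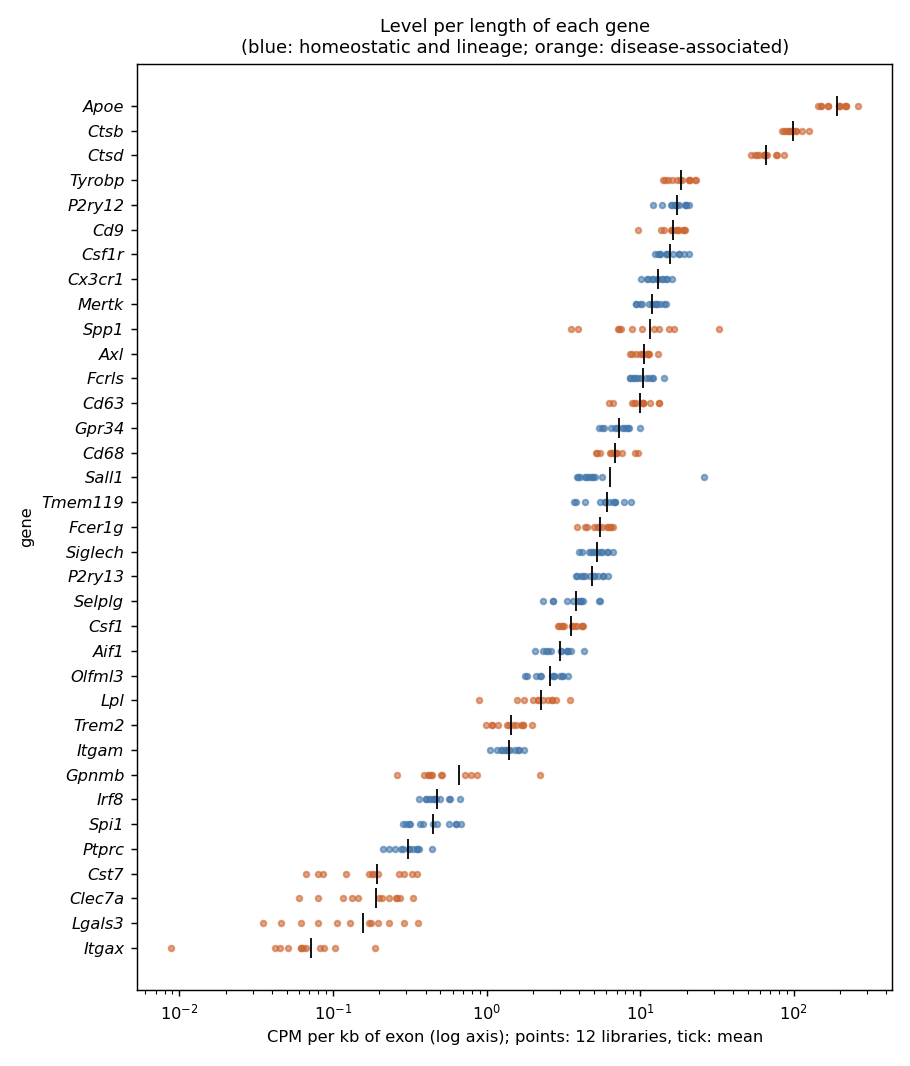
Level of each of the 35 genes in CPM per kb of exon on a log axis. Each point is 1 of 12 libraries and the tick is their mean. Apoe lies at 144 to 262 CPM per kb, while Cst7, Clec7a, Lgals3 and Itgax have means of 0.19 or less.

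RefSeq promoter windows (GRCm38.p6) were matched for 27 of the 35 genes. The 250 bases before the start were searched on both strands for 3 motifs tied to microglial gene control: GAGGAAGT, a box bound by Spi1 (PU.1); the composite GGAA and GAAA with 2 bases between, of the kind bound by Spi1 with Irf8; and TCACGTGA, the palindromic box of lysosomal genes read by factors of the MiT family. The first and second motif share the letters GGAA. The 4 members with a match are shown because each stands for a class of the list: Clec7a and Spp1 are induced genes of the disease-associated state, Ctsd is a lysosomal protease and Siglech is a homeostatic receptor. Sequences run 5′ to 3′ on the strand of the gene, with the matching bases in capitals (for Clec7a the match lies on the other strand).
Clec7a, chr6:129472780-129473029, minus strand: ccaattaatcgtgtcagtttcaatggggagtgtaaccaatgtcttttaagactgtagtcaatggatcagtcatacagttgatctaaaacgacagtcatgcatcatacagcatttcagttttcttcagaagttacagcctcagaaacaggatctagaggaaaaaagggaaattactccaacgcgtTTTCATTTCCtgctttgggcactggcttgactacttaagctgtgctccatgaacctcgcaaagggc
Spp1, chr5:104434861-104435110, plus strand: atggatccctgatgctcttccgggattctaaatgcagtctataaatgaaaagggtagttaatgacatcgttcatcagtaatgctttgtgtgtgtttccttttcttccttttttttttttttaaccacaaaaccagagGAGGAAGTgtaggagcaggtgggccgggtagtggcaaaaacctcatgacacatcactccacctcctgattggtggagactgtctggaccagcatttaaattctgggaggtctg
Siglech, chr7:55767934-55768183, plus strand: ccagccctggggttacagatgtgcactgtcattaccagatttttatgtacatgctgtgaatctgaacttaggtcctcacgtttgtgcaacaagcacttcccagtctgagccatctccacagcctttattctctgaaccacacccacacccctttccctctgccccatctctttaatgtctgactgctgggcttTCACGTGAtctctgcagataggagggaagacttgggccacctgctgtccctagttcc
Ctsd, chr7:142387909-142387936, minus strand: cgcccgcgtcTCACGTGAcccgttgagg
The matches begin 66, 113, 57 and 99 bases before the RefSeq start, in that order. In a second window of Clec7a, not shown, the match begins 60 bases before the start. GENCODE M21 draws Ctsd at chr7:142375911-142388038, so its match lies within that span and only a short stretch is shown. The box GAGGAAGT occurred in 2.79% of the 27025 genes with a window, the composite in 2.68% and TCACGTGA in 0.907%. Spp1 was the single member with the first, Clec7a the single member with the second, and Ctsd and Siglech held the third. For orientation, in mm10 Trem2 lies at chr17:48346401-48354147 on the plus strand, Tmem119 at chr5:113793729-113800516 on the minus strand and Mertk at chr2:128698956-128802894 on the plus strand. P2ry13 (chr3:59207892-59210882) and P2ry12 (chr3:59216272-59262871) are neighbours on the minus strand, and Itgam (chr7:128062640-128118491) and Itgax (chr7:128129547-128150657) on the plus strand. These spans are from GENCODE M21, which lists Clec7a as a polymorphic pseudogene. A match describes letters in the window and says nothing on binding.

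Most homeostatic genes were high or low in the same libraries, and the groups overlapped for most of them. P2ry12 had 35.03, 30.7 and 45.1 CPM in purified sham mice and 42.7, 44.4 and 53.0 in purified injured mice. It had 50.6, 40.6 and 49.5 CPM in fish oil sham mice and 41.0, 50.9 and 43.1 in fish oil injured mice. The lowest libraries were 2 of the 3 purified sham libraries, and the third lay among those of the other groups. Tmem119 showed the same picture, with 8.60, 8.85 and 15.8 CPM in purified sham, 15.5, 13.7 and 15.8 in purified injured, 20.04, 14.6 and 13.6 in fish oil sham and 10.1, 18.1 and 12.7 in fish oil injured mice. Fish oil injured replicate 2 was also low for it, so both diets held a library near the bottom.

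Cx3cr1, which binds fractalkine displayed by neurons, had 45.4, 49.7 and 62.7 CPM in purified sham and 57.8, 54.6 and 67.1 in purified injured mice. In fish oil sham mice it had 72.9, 53.4 and 63.1 CPM, and in fish oil injured mice 50.6, 66.1 and 58.4. Csf1r, which microglia need to survive, had 71.5, 77.2 and 103 CPM in purified sham, 85.0, 86.0 and 103 in purified injured, 111, 78.0 and 93.6 in fish oil sham and 75.5, 119 and 86.0 in fish oil injured mice. For both receptors all groups overlapped, and the purified injured group spanned the narrowest range. The gene of the Csf1r ligand, Csf1, counted with the disease-associated genes, lay lower on fish oil in injured mice: 22.4, 20.4 and 19.0 CPM in purified injured against 18.8, 16.2 and 15.6 in fish oil injured mice, which do not overlap.

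Counted over the list, the purified sham group had the lowest group mean for 14 of the 17 homeostatic genes and the highest for 0, while the fish oil sham group had the highest for 11. That low mean lay in purified sham replicates 2 and 3, which held the lowest value of 9 and 5 of the 17 genes. Purified sham replicate 4 was above the gene's own median for 16 of 17. Both fish oil groups also held libraries at either end: fish oil injured replicate 3 was above the median for 17 of 17 and fish oil injured replicate 2 for 0. Fish oil sham replicates 2 and 3 were above it for 16 and 2 of 17; replicate 2, with the highest value of 7 genes, is also the library with 935 CPM of striatal markers, and purified sham replicate 4 follows with 412. The part of that tissue in these values was not tested. As the mean log2 deviation of the 17 genes from their averages, the libraries lay at -0.35, -0.30 and 0.17 in purified sham and 0.02, 0.02 and 0.15 in purified injured mice. The fish oil libraries lay at 0.30, -0.14 and 0.11 in sham and -0.22, 0.28 and -0.04 in injured mice.

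**Figure D2:**
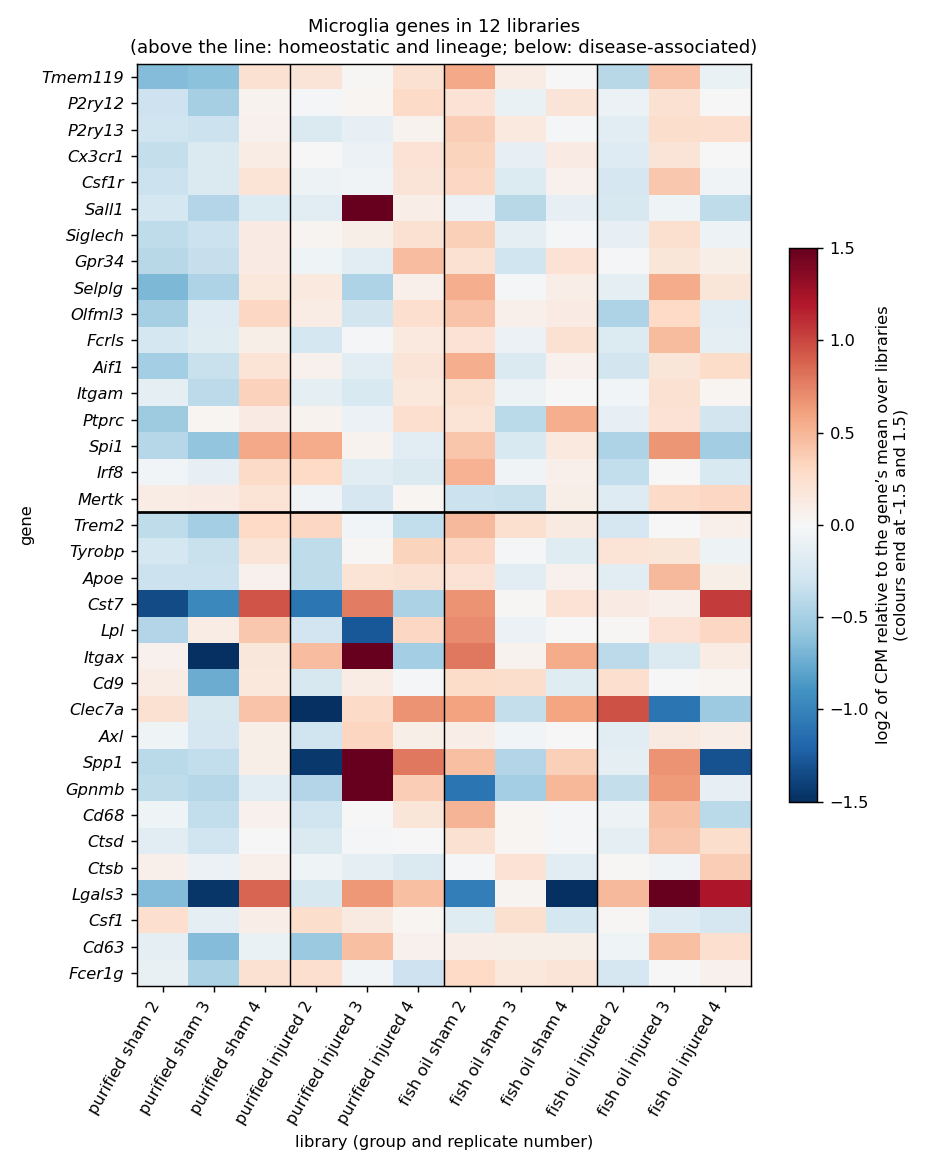
Heat map of the 35 genes (rows) in 12 libraries (columns), coloured by log2 of CPM relative to the gene's mean over libraries. Purified sham replicates 2 and 3 and fish oil injured replicate 2 are blue for most homeostatic genes, and Sall1, Itgax, Spp1 and Gpnmb are dark red in purified injured replicate 3.

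Mertk, a receptor for phosphatidylserine bridges on dying cells that is also expressed by astrocytes, did not follow the other lineage genes. It had 55.2, 55.7 and 58.7 CPM in purified sham, 49.2, 42.9 and 52.0 in purified injured, 40.8, 40.4 and 54.1 in fish oil sham and 44.5, 62.2 and 63.5 in fish oil injured mice. The purified sham libraries lay above all those of the purified injured and of the fish oil sham group. Its interaction of diet and injury was 0.57 ± 0.22 (SE) on the log2 scale, the smallest unadjusted p of the 35 genes in that comparison (0.023), and the p adjusted over all genes was 0.820. The summed choroid plexus markers were also highest in fish oil injured replicates 3 and 4, the libraries with the highest Mertk, and with a choroid plexus score as covariate the difference between diets in injured mice went from 0.24 to -0.06. That difference was 0.14 without fish oil injured replicate 4 and 0.39 without fish oil injured replicate 2. Its ligand gene Gas6 had 52.5, 72.2 and 76.2 CPM in fish oil injured mice and 56.5, 50.3 and 52.3 in purified injured mice. As a log2 deviation from its average, the choroid plexus score was 0.77, 3.84 and 3.78 in fish oil injured and -1.87 to -0.81 in purified injured mice. Score and diet thus went together in injured mice, and the covariate cannot separate them. The part of choroid plexus tissue in these values was not tested.

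**Figure D3:**
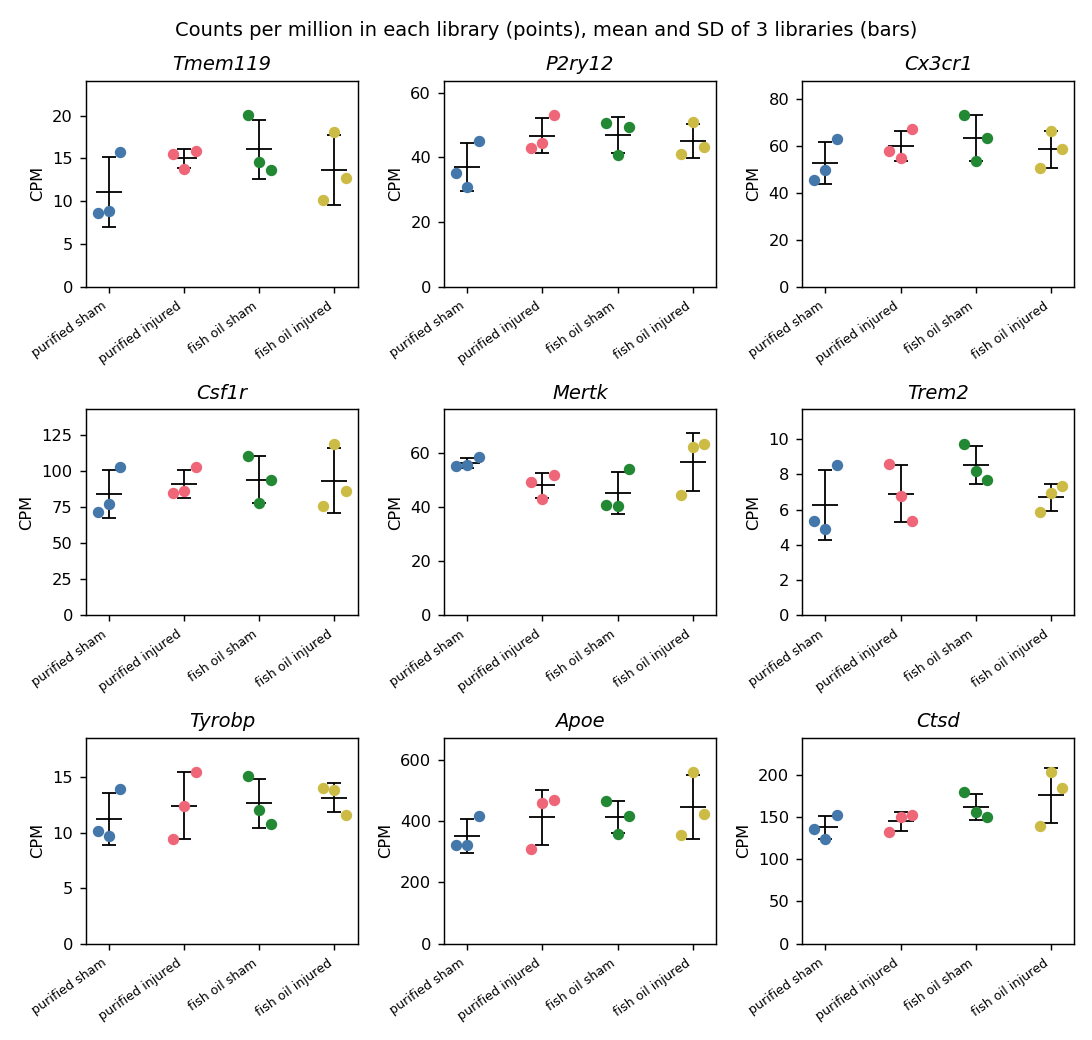
CPM of 9 of the genes in each library (points) by group, with the mean and SD of 3 libraries (bars). The groups overlap for Tmem119, P2ry12, Cx3cr1, Csf1r, Tyrobp, Apoe and Ctsd; the purified sham libraries of Mertk lie at 55.2 to 58.7 CPM, and Trem2 is lower in all fish oil injured than in all fish oil sham libraries.

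The purified sham group also had the lowest group mean for 13 of the 18 disease-associated genes, and its replicate 3 held the lowest value of 6 of them. The receptor Trem2 with its adaptors is given first. Trem2 had 5.36, 4.89 and 8.52 CPM in purified sham, 8.59, 6.75 and 5.36 in purified injured, 9.74, 8.21 and 7.65 in fish oil sham and 5.85, 6.91 and 7.35 in fish oil injured mice. The fish oil injured libraries thus lay below the fish oil sham libraries without overlap. Tyrobp had 10.1, 9.66 and 13.9, then 9.40, 12.4 and 15.4, then 15.1, 12.04 and 10.8, then 14.1, 13.8 and 11.6 CPM in the same order of groups, and all groups overlapped. Fcer1g, the common gamma chain that carries signals of Fc receptors, had 5.78, 5.27 and 5.41 CPM in fish oil sham and 3.94, 4.69 and 4.93 in fish oil injured mice, again without overlap. In purified sham and purified injured mice it had 4.36, 3.38 and 5.54 and 5.63, 4.59 and 3.80 CPM. The receptor kinase Axl lay between 42.8 and 65.7 CPM in all libraries.

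Genes of lipid handling and the lysosome follow. Apoe had 321, 321 and 417 CPM in purified sham, 308, 459 and 469.6 in purified injured, 465, 359 and 417 in fish oil sham and 356, 559 and 424 in fish oil injured mice. Ctsd had 136, 124 and 152 CPM in purified sham, 132, 150.1 and 152 in purified injured, 179, 156 and 150.0 in fish oil sham and 139.5, 203 and 184 in fish oil injured mice. Averaged over injury states Ctsd was 0.26 ± 0.10 (SE) higher on the fish oil diet on the log2 scale, with an unadjusted p of 0.025 and an adjusted p of 0.518, and the diets overlapped. Ctsb had 564, 536 and 509 CPM in purified injured and 597, 567 and 759 in fish oil injured mice, which did not overlap, while in sham mice (620.4, 555 and 622 on the purified diet, 583, 685 and 525 on fish oil) it did. Exons of Ctsb share 774 bases with Fdft1 on the other strand, and those of Ctsd 808 bases with the gene model Gm49369 on the same strand. How reads from the shared bases were counted is not given in the sources used here. The macrosialin gene Cd68 lay between 6.43 and 12.1 CPM over all libraries. The tetraspanin Cd63 had 38.3, 38.2 and 38.1 CPM in fish oil sham against 32.6, 22.9 and 33.6 in purified sham mice, without overlap, and 34.3, 48.8 and 42.7 against 24.4, 49.0 and 37.5 in injured mice, with overlap.

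A single library set the high values of several genes. Sall1, a zinc finger factor that among brain macrophages is restricted to microglia, had 23.0, 20.4 and 24.1 CPM in purified sham and 24.7, 136 and 29.6 in purified injured mice, the 136 being replicate 3. In the fish oil groups it had 26.0, 20.8 and 25.3 and 23.4, 26.5 and 21.2 CPM. Gpnmb, a glycoprotein of lipid-laden phagocytes, had 2.70, 14.5 and 4.70 CPM in purified injured mice and at most 5.67 in any other library. Spp1, which encodes osteopontin, had 5.85, 53.5 and 27.5 CPM there and at most 25.3 elsewhere, and Itgax reached 0.90 CPM in the same library. Lpl, lipoprotein lipase, had its lowest value there, at 9.31 CPM against 16.5 to 36.7 in the others. In that library the olfactory bulb markers stood at 644 CPM, whereas Tmem119 at 13.7 and P2ry12 at 44.4 CPM were within the range of the other libraries.

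**Figure D4:**
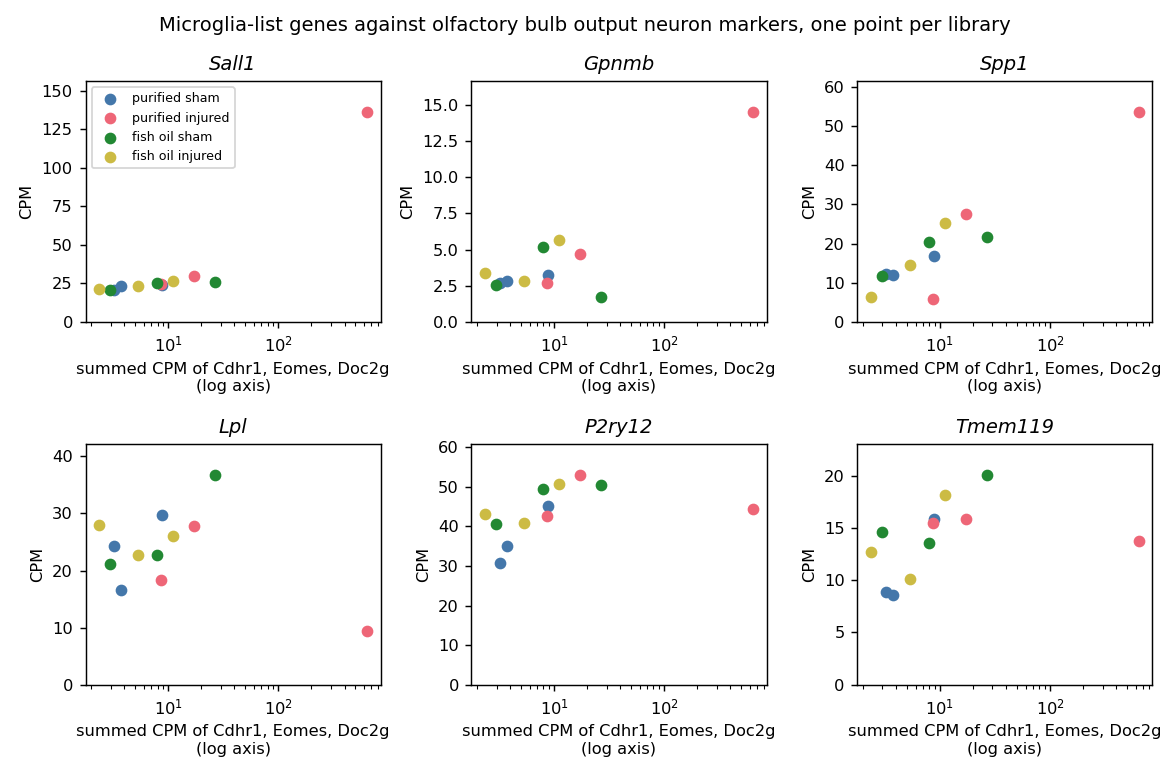
CPM of 6 of the genes (vertical axes) against the summed CPM of 3 olfactory bulb output neuron markers (log axis), 1 point per library coloured by group. The point at 644 on the horizontal axis is purified injured replicate 3, which is highest for Sall1, Gpnmb and Spp1, lowest for Lpl and within the range of the others for P2ry12 and Tmem119.

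Injury on the purified diet was compared first. No member passed the threshold of an adjusted p of 0.05 in edgeR's quasi-likelihood test, and neither did any of the 19252 genes (0%). DESeq2 and limma-voom also called 0 members. The fitted value was above 0 for 14 of 17 homeostatic and 15 of 18 disease-associated genes, with medians of 0.19 and 0.11 on the log2 scale, against 50.6% and 0.003 over all genes. With 1 library left out the homeostatic median ran from 0.07 (without purified sham replicate 2) to 0.38 (without purified sham replicate 4). The disease-associated median ran from 0.01, with 10 of 18 genes above 0 (without purified sham replicate 3), to 0.30 (without purified sham replicate 4). Markers of other cells lay to both sides in this comparison: 8 of 9 border macrophage markers were above 0 (median 0.49), and 0 of 10 oligodendrocyte (-0.72), 0 of 6 endothelial (-0.39) and 0 of 5 striatal markers (-1.22). The medians furthest from 0 were of the olfactory bulb (5.26, 3 of 3 above 0) and choroid plexus markers (-1.49, 1 of 7). Their part in the result was not tested. An unadjusted p under 0.05 was found for 2 members, beside 6.5% of all genes: Sall1 at 1.49 ± 0.52 (SE; adjusted p 0.763) and Gpnmb at 1.31 ± 0.57 (adjusted p 0.763). Without purified injured replicate 3 these were 0.28 and 0.35, and Spp1 went from 1.08 ± 0.65 to 0.29. P2ry12 was 0.34 ± 0.16 higher with injury (adjusted p 0.763). With 1 library left out it ran from 0.23 (without purified sham replicate 3) to 0.51 (without purified sham replicate 4). Sall1 was higher and Mertk lower without overlap of the groups, beside 4.92% of all genes higher and 6.68% lower (11.6% in either direction). The intervals set a limit on what could have been missed: for all 17 homeostatic genes they exclude a fall to 0.5 of the sham level, and for 14 of 17 a doubling. For the disease-associated genes a doubling is excluded for 12 of 18 and a fall to 0.5 for 14 of 18.

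Injury on the fish oil diet gave fitted values near 0. Of the homeostatic genes 4 of 17 were above 0, with a median of -0.06, and of the disease-associated genes 9 of 18, with a median of -0.02, against 49.0% and -0.01 over all genes. The homeostatic count moved both ways with single libraries. It was 10 of 17 (median 0.03) without fish oil sham replicate 2 and 11 of 17 (0.06) without fish oil injured replicate 2. It was 8 of 17 (-0.02) without fish oil injured replicate 4, and 1 of 17 without fish oil injured replicate 3 (-0.20) or fish oil sham replicate 3 (-0.17). With the choroid plexus score as covariate it was 3 of 17 (-0.26). No member and none of the 19252 genes (0%) passed the threshold, and 1 member had an unadjusted p under 0.05, beside 3.48% of all genes. That gene was Lgals3, outside the naming rule for its level under 1 CPM and named after its values were seen. It had 0.33, 0.67 and 0.54 CPM in fish oil injured against 0.11, 0.24 and 0.06 in fish oil sham mice, and 1.84 ± 0.67 on the log2 scale (adjusted p 0.999). The choroid plexus markers were high in the same 3 libraries (222 to 2649 CPM against 32.9 to 63.6), and with their score as covariate Lgals3 was at 1.60. In purified sham replicate 3, with 477 CPM of these markers, Lgals3 was at 0.09 CPM. On fish oil the score and injury went together, so the covariate cannot separate them. The part of these markers in the result was not tested. Trem2 was -0.35 ± 0.24, Fcer1g -0.28 ± 0.22, Irf8 -0.39 ± 0.23 and Mertk 0.33 ± 0.15, each with an adjusted p of 0.999. Without fish oil sham replicate 2, Irf8 was at -0.22. Lgals3 was higher and Trem2 and Fcer1g lower without overlap, beside 4.97% of all genes higher and 5.23% lower (10.2% in all).

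Diet in sham mice gave values mostly above 0. The fish oil group was above the purified group for 16 of 17 homeostatic genes, Mertk being the exception, and for 15 of 18 disease-associated genes. The medians were 0.26 and 0.23 on the log2 scale, against 0.006 and 51.1% above 0 over all genes. This comparison shares its purified sham libraries with that of injury on the purified diet, so the low values of those libraries enter both. Leaving out any 1 library kept the homeostatic median between 0.15 and 0.43. No member and no gene (0%) passed the threshold, and the lowest adjusted p of a member was 0.934. With an unadjusted p under 0.05 (3.69% of all genes), 1 member was P2ry12 at 0.34 ± 0.16. Trem2 was 0.45 ± 0.24, Ctsd 0.23 ± 0.14 and Mertk -0.33 ± 0.15. With 1 library left out, Trem2 ran from 0.31 (without purified sham replicate 3) to 0.74 (without purified sham replicate 4). Cd63 was higher and Mertk lower without overlap, beside 6.31% of all genes higher and 7.45% lower (13.8% in all). The intervals exclude a doubling for 13 of 17 homeostatic and 13 of 18 disease-associated genes. Markers of other cells also differed between these groups: the 6 endothelial markers summed to 81.5 to 101 CPM on fish oil and 139.6 to 191 on the purified diet, and 8 of 9 border macrophage markers were above 0 on fish oil, with summed levels of 13.3 to 24.7 against 10.8 to 16.1 CPM. All tested astrocyte (6 of 6, median 0.17), oligodendrocyte (10 of 10, 0.18), meningeal fibroblast (7 of 7, 0.65) and striatal markers (5 of 5, 1.24) were above 0 as well. So were 3 of 3 olfactory bulb markers (1.30), but only 1 of 7 choroid plexus (-1.54) and 2 of 6 neuron markers (-0.10). Their part in the result was not tested.

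For diet in injured mice, members lay on both sides of 0. The fish oil group was above for 7 of 17 homeostatic genes, with a median of -0.04, and for 10 of 18 disease-associated genes, with a median of 0.07, against 50.8% and 0.006 over all genes. The homeostatic count ran from 4 of 17 without fish oil injured replicate 3 to 13 of 17 without fish oil injured replicate 2, and was 10 of 17 without purified injured replicate 4 and 3 of 17 with the choroid plexus score as covariate. No member and none of all genes (0%) passed the threshold, although 10.7% of all genes had an unadjusted p under 0.05. Sall1 was the single member among these, at -1.42 ± 0.52 (adjusted p 0.408) and at -0.20 without purified injured replicate 3. Ctsd was 0.28 ± 0.14 and Ctsb 0.26 ± 0.13 higher on fish oil, with adjusted p-values of 0.506 and 0.513. Ctsb was higher and Csf1 lower without overlap, beside 5.6% of all genes higher and 5.98% lower (11.6% in all). Without fish oil injured replicate 4 the value of Ctsb was 0.11. That of Ctsd was 0.16 without fish oil injured replicate 3 and 0.42 without replicate 2. Fish oil injured replicates 3 and 4 held the highest Ctsd, and replicate 4 the highest Ctsb. Those libraries had 2649 and 2501 CPM of choroid plexus markers. Markers of other cells lay to both sides. Above 0 were 7 of 7 choroid plexus (median 4.49), 10 of 10 oligodendrocyte (0.70) and 5 of 5 striatal markers (0.64), but 0 of 6 endothelial (-0.51) and 0 of 3 olfactory bulb markers (-5.13). Their part in the result was not tested.

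Averages and the interaction used the same 12 libraries. Averaged over diets, injury gave medians of 0.05 and 0.08, with 13 of 17 and 11 of 18 genes above 0, against 0.001 and 50.3% over all genes. Lgals3 was the single member with an unadjusted p under 0.05, beside 3.6% of all genes. The homeostatic median was below 0 without fish oil injured replicate 3 (-0.02, 7 of 17 above 0), without fish oil sham replicate 3 (8 of 17) and with the choroid plexus score as covariate (-0.02, 8 of 17). The disease-associated median was below 0 without purified injured replicate 3 (-0.01, 7 of 18) and without purified sham replicate 3 (-0.02, 9 of 18). Sall1 was 0.74 ± 0.36, Gpnmb 0.82 ± 0.40, Cd63 0.23 ± 0.16 and Irf8 -0.23 ± 0.17, each with an adjusted p of 0.991. Without purified injured replicate 3, Sall1 was at 0.13, Gpnmb at 0.34 and Cd63 at 0.10, and Irf8 was at -0.13 without fish oil sham replicate 2. Averaged over injury states, fish oil gave medians of 0.11 and 0.13, with 14 of 17 and 14 of 18 above 0, against 0.013 and 52.5% over all genes. With 1 library left out the homeostatic median ran from 0.06 (10 of 17, without fish oil injured replicate 3) to 0.22, and the disease-associated median from 0.07 to 0.23. With the choroid plexus score as covariate the homeostatic median was 0.05 (12 of 17). In the main fit P2ry13, a purinergic receptor encoded beside P2ry12, was 0.29 ± 0.12 (adjusted p 0.544). P2ry13 and Ctsd were the 2 members with an unadjusted p under 0.05 there, beside 8.85% of all genes. Selplg, the P-selectin ligand, was 0.40 ± 0.18 (adjusted p 0.568) and Csf1 -0.21 ± 0.11 (adjusted p 0.599). The interaction, the injury difference on fish oil minus that on the purified diet, was below 0 for 15 of 17 homeostatic and 13 of 18 disease-associated genes. The medians were -0.31 and -0.14, against -0.02 over all genes, of which 47.6% were above 0. With 1 library left out the homeostatic median ran from -0.51 (without purified sham replicate 4) to -0.20 (without fish oil sham replicate 2), and the disease-associated median from -0.27 to -0.05. Without fish oil sham replicate 2 and purified injured replicate 3 together, 11 of 18 disease-associated genes were above 0, with a median of 0.04. Sall1 was -1.51 ± 0.72 (adjusted p 0.820), Spp1 -1.29 ± 0.92 and Trem2 -0.49 ± 0.34 (both 0.826). Without purified injured replicate 3, Sall1 was at -0.31 and Spp1 at -0.52. Trem2 ran from -0.78 (without purified sham replicate 4) to -0.30 (without purified injured replicate 2). Mertk was the single member with an unadjusted p under 0.05, beside 5.76% of all genes. No member and no gene passed the threshold in these 3 comparisons (0% in each).

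**Figure D5:**
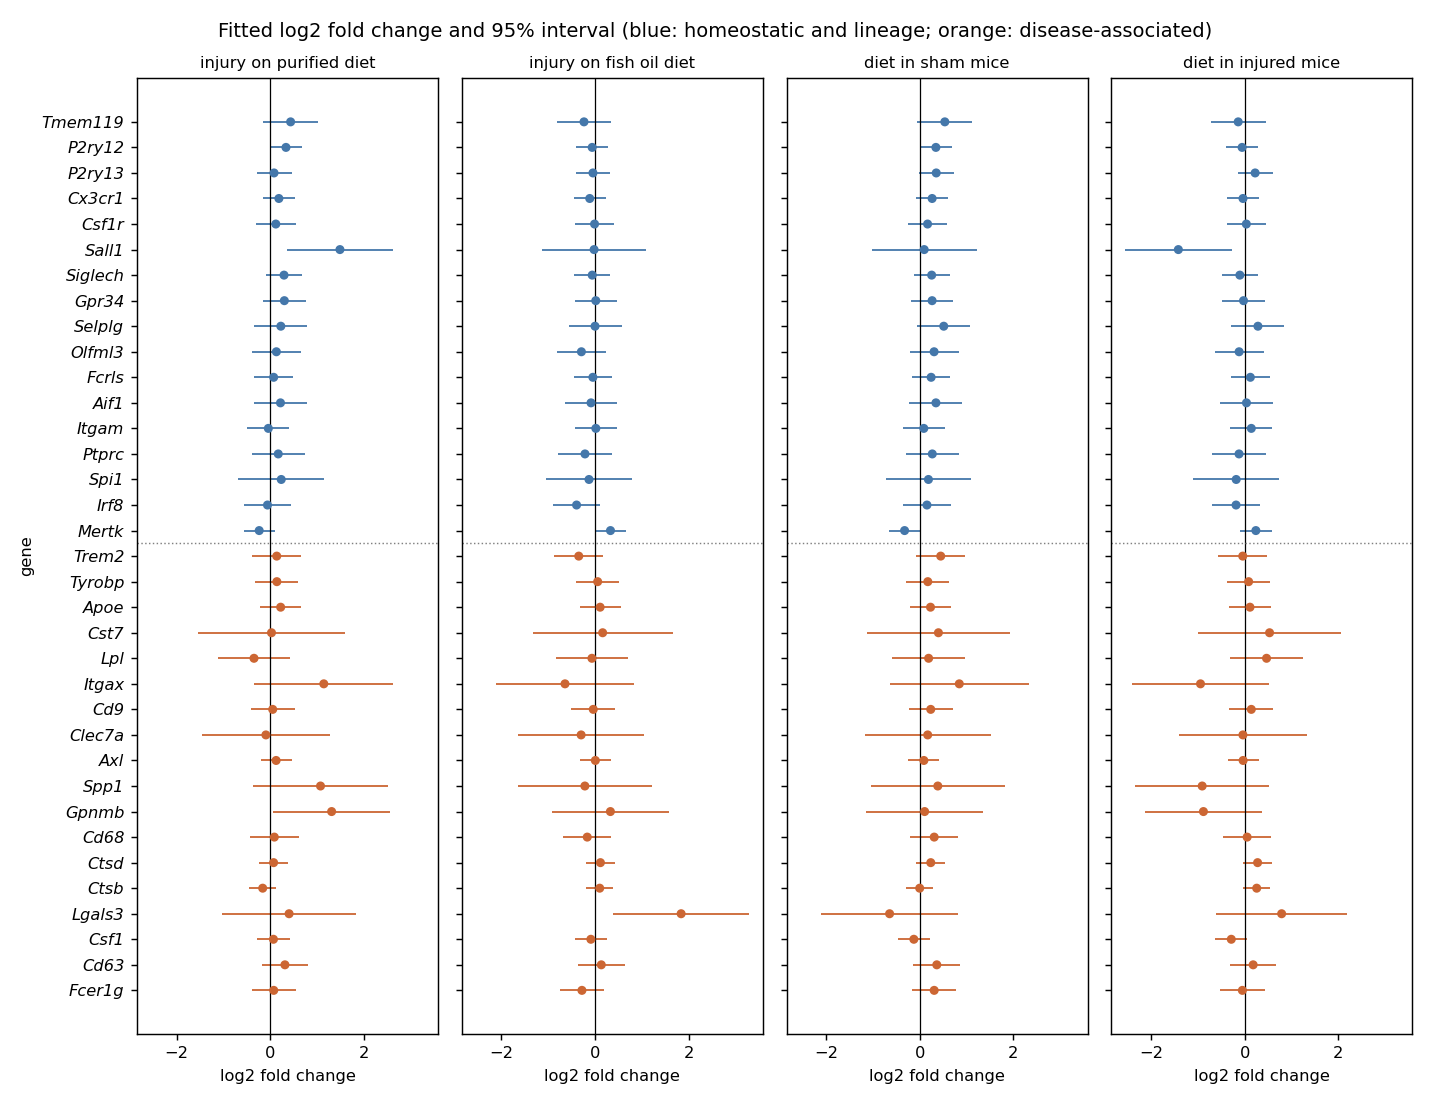
Fitted log2 fold changes (points) with 95% intervals (lines) of the 35 genes in 4 comparisons. Most points of diet in sham mice lie right of 0, those of injury on fish oil lie around 0, and the lines of Itgax, Cst7, Clec7a, Lgals3, Spp1 and Gpnmb are the widest.

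The other members of the lists stayed within these patterns. Siglech (13.5 to 22.6 CPM), Gpr34 (11.2 to 20.8), Selplg (9.94 to 23.4), Olfml3 (11.01 to 20.95), Fcrls (19.9 to 33.4), Aif1 (3.16 to 6.54), Itgam (5.28 to 8.80), Ptprc (3.85 to 8.12), Spi1 (0.77 to 1.82) and Irf8 (2.56 to 4.75) had no adjusted p below 0.568 in any edgeR comparison. That value was of Selplg for diet averaged over injury states. Aif1 encodes the microglial stain IBA1, Itgam the integrin CD11b and Ptprc the leukocyte phosphatase CD45. Exons of Itgam share 3450 bases with the gene model Gm49368 on the same strand, and P2ry12 and P2ry13 lie within Med12l on the other strand with 9 and 0 shared exon bases. Exons of Spp1 share 309 bases with the gene model Gm42793 on the same strand. With genes on the other strand, Csf1r shares 873 exon bases (Hmgxb3), Cd9 218 (Gm26728) and Cx3cr1 78 (Gm33858). Cd9 lay between 19.7 and 39.7 CPM, its lowest value being in purified sham replicate 3.

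Wider lists of the same biology gave no call either. Of 24 further microglia genes, 21 were above 0 for diet in sham mice with a median of 0.23, and 15 for injury on the purified diet with a median of 0.06. Hpgds, the hematopoietic prostaglandin D synthase, had 7.94, 9.84 and 8.01 CPM in fish oil injured against 13.5, 10.3 and 13.1 in fish oil sham mice, without overlap, and -0.51 ± 0.15 on the log2 scale (unadjusted p 0.0056, adjusted p 0.999). Of 23 tested further disease-associated genes, 12 were above 0 for injury on the purified diet with a median of 0.01, and the cathepsin Ctsz was lower at -0.38 ± 0.15 (adjusted p 0.763). Its libraries held 23.4, 23.4 and 18.7 CPM in purified injured and 30.9, 25.7 and 28.6 in purified sham mice.

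Signalling around the adaptors Tyrobp and Fcer1g was covered by a list that holds Fc receptors and phosphatases as well as kinases. Of its tested genes 10 of 11 were above 0 for injury on the purified diet (median 0.16) and 1 of 11 for diet in injured mice (median -0.12). Syk, the kinase recruited by these adaptors, had 4.29, 4.49 and 4.66 CPM in fish oil injured against 4.83, 7.36 and 6.38 in purified injured mice, at -0.47 ± 0.20 (adjusted p 0.446). The kinase Lyn had 30.8 CPM in purified injured replicate 3, the library with olfactory bulb markers, and 5.87 to 9.67 in the others. Of 14 genes for ligands and co-receptors, 7 were above 0 with injury on the purified diet and 8 for diet in sham mice, with medians of 0.01 and 0.03.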

How the data were processed

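RNA was sequenced from 12 brain libraries (stranded, paired-end), and the authors deposited whole-number counts per gene. Reads were aligned with STAR 2.5.2a to mm10 and counted with featureCounts 1.4.3-p1, per the submitters' processing notes; for the annotation release and strand setting: not given in the sources used here. Counts of 2 (20514) outnumber counts of 1 (11222), so pairs may count as 2. Identifiers were matched to GENCODE M21 without version for 53274 of 53379 genes; positions are used for the 33 members that also matched in version.

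From the deposited counts, edgeR 4.0.16 (R 4.3.3) fitted 4 group means to 12 libraries (TMM, filterByExpr with a minimum count of 10, robust quasi-likelihood, 8 residual degrees of freedom). P-values were Benjamini-Hochberg adjusted over 19252 genes, with a threshold of 0.05, and standard errors are the log2 fold change over the root of F. The common biological coefficient of variation was 0.289. CPM are counts over TMM-scaled library size. Groups come from the sample titles. In each of 7 comparisons, the 2 homeostatic and 2 disease-associated members of lowest unadjusted p with a mean of at least 1 CPM were named, with any member past the threshold; from each other list the gene of lowest p may be named. Members and lists were chosen with earlier results of these data known, so lists are described and not tested. Alternatives were other scaling and filters, DESeq2 1.42.0, limma-voom 3.58.1, a threshold of 0.10, a replicate block, a choroid plexus covariate, the compared groups alone and left-out libraries. The fit was tested on simulated counts, with changes only in genes of at least 1 CPM and no library carrying neighbouring tissue. Recovery at lower levels or with such libraries was not tested. Csf1r and Irf8 carry no position here.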

Additional observations from a re-analysis of the deposited data

How the results depend on the processing

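No member passed the threshold under any alternative run, the lowest adjusted p being 0.121 (Sall1, diet in injured mice, DESeq2). Counts over all genes did change. DESeq2 called 14 genes for injury on the purified diet, 37 for injury on fish oil, 17 for diet in sham mice, 186 for diet in injured mice, 3 for injury averaged, 99 for diet averaged and 21 for the interaction, where edgeR called 0. limma-voom called 1 for injury on fish oil and 2 for injury averaged. A threshold of 0.10 gave 1 for injury averaged, and no filter on low counts gave 1 for injury averaged and 2 for diet averaged. Leaving out both libraries rich in other regions (fish oil sham replicate 2, purified injured replicate 3) gave 1 for diet in injured mice. With 1 library left out, calls ranged from 0 to 7 for injury on fish oil (7 without fish oil injured replicate 2), 0 to 83 for diet in injured mice (83 without purified injured replicate 4) and 0 to 6 for diet averaged (6 without purified injured replicate 4). The cause was not tested. Of the named fold changes 1 reversed: Mertk for diet in injured mice, -0.0595 with the choroid plexus score as covariate. In injured mice that score went together with diet, and this fit cannot separate them. The replicate numbers did not pair the libraries: correlations of deviations over 18 same-number pairs ran from -0.371 to 0.278 (median -0.023, 3 over 0.1), and 3 of 12 libraries correlated best with their own number. The fit with the replicate block called 0 genes and gave a homeostatic median of 0.19 for injury on the purified diet. Depth limits Cst7, Itgax, Clec7a and Lgals3.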
